A study of Homo sapiens with 6 samples.

Results

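The epidermal growth factor (EGF) family and its ERBB receptors were examined by poly(A) RNA sequencing of MDA-MB-231, a long-established cell line from a human breast cancer of the triple-negative type. The genes were chosen by name, with earlier results of these data known: the ligands *HBEGF*, *TGFA*, *EREG*, *AREG*, *BTC* and *NRG1*, the receptors *EGFR*, *ERBB2* and *ERBB3*, and the receptor inhibitor *ERRFI1*, which are 10 of the 58825 genes in the deposited table. The treated group had 24 h of disulfiram with copper (DSF/Cu, 0.2 µM), and the control group had 24 h of the vehicle DMSO. There were 3 repeats of each, every one of them a pool of 3 wells. Disulfiram, a drug used against alcohol dependence, gives a metabolite that binds copper. Neither agent was given alone in these samples, and a single cell line was used, so the effects of the drug and of the metal cannot be told apart. The labels do not say whether repeats were grown separately, so the p-values reflect the spread of these libraries only, and that spread may be technical.

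EGF-family ligands are made as membrane-anchored precursors and are cut free by ADAM proteases. A ligand binds the outer part of a receptor and brings receptors together in pairs, whose tyrosine kinases then switch on the RAS-ERK and PI3K-AKT cascades. *HBEGF*, *TGFA*, *EREG*, *AREG* and *BTC* encode ligands of EGFR, *NRG1* encodes a ligand of ERBB3 and ERBB4, and ERBB2 has no known ligand of its own and works as a partner of the others. *ERRFI1* encodes MIG6, which binds the EGFR kinase and blocks it, and which EGFR signalling itself induces. In breast cancer, triple-negative cells lack amplified *ERBB2* and often express EGFR.

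Total counts per library were 55563223 to 61633168 in DSF/Cu and 62165212 to 70883177 in DMSO, and the 10 genes held 51348 to 55403 and 67198 to 78200 of them. The cells carried the marker genes set for MDA-MB-231, with *VIM* at 422.7 ± 20.4 FPKM in DSF/Cu and 574.2 ± 33.2 FPKM in DMSO (SD, n = 3 each), except *SPARC*, which was at 0.127 ± 0.0497 and 0.0497 ± 0.0255 FPKM. In DSF/Cu and DMSO, *AXL* was at 101.7 ± 1.45 and 193.4 ± 9.58 FPKM, and *CAV1* at 33.0 ± 12.3 and 69.3 ± 32.3 FPKM. *CD44* was at 27.0 ± 1.23 and 26.5 ± 2.27 FPKM, and *ZEB1* at 5.4 ± 0.95 and 3.4 ± 0.96 FPKM. *ESR1* and *PGR*, the oestrogen and progesterone receptor genes, stayed at or under 0.0435 FPKM on average in either group. The 8 luminal markers summed to 27.7 to 27.8 FPKM in DSF/Cu and 50.7 to 53.0 FPKM in DMSO, nearly all of it from the keratin gene *KRT19*, with the luminal adhesion gene *CDH1* near 0. Markers of adipocytes, leukocytes and endothelial cells summed to at most 0.336, 0.0173 and 0.101 FPKM in any library. The part of these marker differences in the results below was not tested.

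After DSF/Cu, 2 of the 10 genes were higher than in DMSO, *AREG* (1.80-fold) and *ERRFI1* (1.49-fold). Another 5 were lower, *EREG* (1.77-fold), *ERBB2* (1.75-fold), *NRG1* (1.62-fold), *HBEGF* (1.42-fold) and *EGFR* (1.18-fold). *TGFA*, *BTC* and *ERBB3* were not called in either direction. All 10 passed the filter on low counts. A call means a Benjamini-Hochberg adjusted p under 0.05 in edgeR's quasi-likelihood test over the 18229 genes tested, and levels are CPM, that is, counts per library size after scaling by TMM, a method that sets most genes to a common level between libraries. By this rule 35.2% of all tested genes were called, 18.5% higher and 16.8% lower, so calls among the 10 genes are to be read against a table in which changes were common. In bulk RNA, fewer cells that express a gene and less RNA per cell cannot be told apart.

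**Figure D1:**
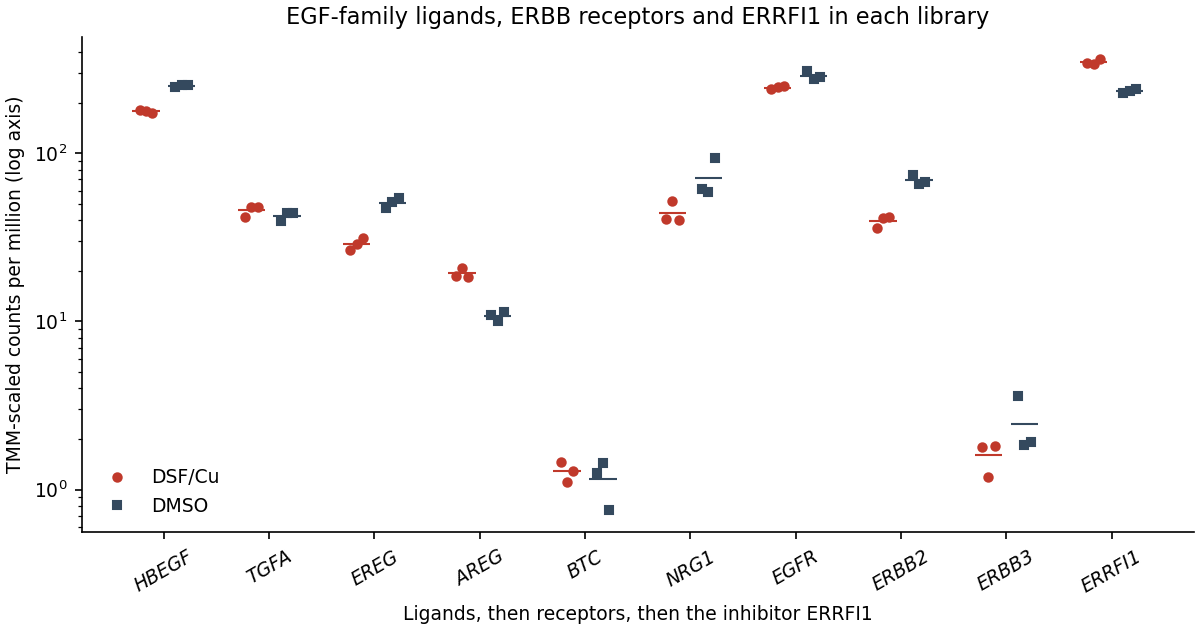
TMM-scaled CPM (log axis) of the 10 genes in each library, with DSF/Cu as red circles and DMSO as dark squares; a line marks the mean of 3 libraries. The groups are apart for *HBEGF*, *EREG*, *AREG*, *NRG1*, *EGFR*, *ERBB2* and *ERRFI1*, overlap for *TGFA* and *BTC*, and all but touch for *ERBB3*.

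*AREG* and *EREG* lie next to each other in the genome and moved in opposite directions. On chromosome 4 of GRCh38 the deposited coordinates place *EPGN* at 74308473 to 74315307, *EREG* at 74365145 to 74388749 and *AREG* at 74445136 to 74455005, all on the plus strand, and *BTC* at 74744759 to 74794523 on the minus strand. *EREG* ends 56.4 kb before *AREG* starts, and the 4 ligand genes span 486 kb. The 250 bases upstream of the RefSeq start (GRCh38.p14) are shown for the divergent pair, at chr4:74444886-74445135 for *AREG* and chr4:74364895-74365144 for *EREG*, both on the plus strand and 5′ to 3′. Those of *HBEGF*, the most abundant ligand transcript, at chr5:140346604-140346853 on the minus strand, are shown beside them. Capitals mark the matches found to the searched motifs.
AREG: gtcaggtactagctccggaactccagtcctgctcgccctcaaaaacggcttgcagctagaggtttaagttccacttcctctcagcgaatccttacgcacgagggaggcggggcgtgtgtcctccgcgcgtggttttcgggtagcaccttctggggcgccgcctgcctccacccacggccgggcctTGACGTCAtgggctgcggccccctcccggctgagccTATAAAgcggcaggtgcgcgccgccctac
EREG: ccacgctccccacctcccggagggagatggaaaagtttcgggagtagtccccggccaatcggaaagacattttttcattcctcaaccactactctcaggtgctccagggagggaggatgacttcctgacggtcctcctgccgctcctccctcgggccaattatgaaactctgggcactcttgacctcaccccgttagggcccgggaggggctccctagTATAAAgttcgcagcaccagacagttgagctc
HBEGF: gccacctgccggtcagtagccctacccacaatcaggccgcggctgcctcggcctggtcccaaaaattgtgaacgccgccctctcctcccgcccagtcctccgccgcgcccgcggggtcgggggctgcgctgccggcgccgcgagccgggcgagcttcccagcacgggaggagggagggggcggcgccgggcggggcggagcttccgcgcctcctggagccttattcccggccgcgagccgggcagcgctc

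Both strands were searched for the cyclic AMP response element (CRE, TGACGTCA), the AP-1 site (TGANTCA), a heat shock element core (GAANNTTC), an antioxidant response element core (TGACNNNGC) and a TATA box (TATAAA). The *AREG* window held a CRE at bases -65 to -58 from the start and a TATA box at -29 to -24, where base -1 is the last one before the start. The *EREG* window held a TATA box at -32 to -27 and no match to the others, and the *HBEGF* window held none of the 5 motifs. Of 35116 human upstream windows of the same length, 1.65% held the CRE, 6.57% the AP-1 site, 5.78% the heat shock core, 10.9% the antioxidant core and 10.7% the TATA box. Of the 10 genes, 8 had an upstream window in the RefSeq table, all but *ERBB3* and *NRG1*. AP-1 matches occurred in the windows of *ERBB2*, which also held a heat shock core, and of a second, internal *EGFR* start, which also held TATA boxes. The *ERBB2* window, at chr17:39687844-39688093, reached past the deposited start of the gene at 39687914. It thus belongs to a RefSeq start inside the gene, and no window of another *ERBB2* start was searched. The windows of *TGFA*, *BTC*, *ERRFI1* and the main *EGFR* start held no match to the 5 motifs. Only the letters TATAAA were taken as a TATA box, and variant forms were not searched. The *ERRFI1* window, for example, held TATATATA, which was not counted. The other motifs were likewise searched only in the letters given, without variant forms. The *EREG* window, for example, held TGACCTCA, which was not counted as a CRE. A match describes these letters and shows no binding.

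*AREG* encodes amphiregulin, an EGFR ligand of mammary duct growth. It held 18.7, 20.9 and 18.4 CPM in the 3 DSF/Cu libraries, against 10.9, 10.0 and 11.4 CPM in the 3 DMSO libraries. The groups did not overlap, and every DSF/Cu library was above every DMSO library. *AREG* rose 1.80-fold, a log2 fold change of 0.85 ± 0.10 (SE; edgeR adjusted p = 0.00143). *EREG*, which encodes epiregulin, held 26.5, 28.8 and 31.2 CPM in DSF/Cu, against 47.1, 51.4 and 54.3 CPM in DMSO. Here every DSF/Cu library was below every DMSO library. *EREG* was 1.77-fold lower, with a log2 fold change of -0.82 ± 0.09 (edgeR adjusted p = 0.000997).

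The order of the pair changed with treatment. Per length, *AREG* stood at 9.42 ± 0.725 FPKM in DSF/Cu and 5.91 ± 0.396 in DMSO, and *EREG* at 4.04 ± 0.400 FPKM in DSF/Cu and 8.04 ± 0.540 in DMSO (SD, n = 3 each). The ratio of *AREG* to *EREG* was thus 2.46, 2.53 and 2.05 in the DSF/Cu libraries, against 0.805, 0.678 and 0.728 in the DMSO libraries. *AREG* was the more abundant of both in each DSF/Cu library and the less abundant in each DMSO library. The other neighbours were scarce. *BTC*, betacellulin, had 82, 64 and 68 counts in DSF/Cu and 96, 97 and 50 in DMSO, and *EPGN*, epigen, had 3, 27 and 11 counts in DSF/Cu and 13, 6 and 0 in DMSO. The log2 fold change of *BTC* was 0.15 with a 95% interval of -0.59 to 0.89 (edgeR adjusted p = 0.747; -0.0361 under total-count scaling), an interval that leaves room for a rise of the size of that of *AREG*. *EPGN*, named for its place and after its values were seen, was not called (edgeR adjusted p = 0.408).

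*HBEGF*, the heparin-binding ligand of EGFR and ERBB4, was the most abundant of the ligand transcripts and was lower after DSF/Cu. It held 181, 178.6 and 173.7 CPM in DSF/Cu, against 248, 256.7 and 254.9 CPM in DMSO. The libraries of each group lay close together, and the groups were far apart relative to that spread. The gene was 1.42-fold lower (log2 fold change -0.51 ± 0.05, edgeR adjusted p = 0.000447). *TGFA*, transforming growth factor alpha, overlapped between the groups, with 41.8, 47.8 and 47.8 CPM in DSF/Cu and 39.6, 44.0 and 44.3 CPM in DMSO. Its log2 fold change was 0.10 with a 95% interval of -0.10 to 0.31 (edgeR adjusted p = 0.406), and its sign turned to -0.0818 under total-count scaling.

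*NRG1*, neuregulin 1, was lower after DSF/Cu, with a wide spread in DMSO. It held 40.8, 51.9 and 40.3 CPM in DSF/Cu, against 61.7, 59.4 and 94.0 CPM in DMSO, where 1 library stood well above the other two. The groups did not overlap. The gene was 1.62-fold lower (log2 fold change -0.69 ± 0.20, edgeR adjusted p = 0.0368). The call rested on single libraries: edgeR's adjusted p was 0.0542 without DMSO replicate 3, the high one, 0.114 without DSF/Cu replicate 1 and 0.111 without DSF/Cu replicate 3, and the log2 fold change without that DMSO library was -0.455. *EGF* itself, which was not among the 10 genes, was scarce but higher, with 406, 346 and 297 counts in DSF/Cu and 238, 182 and 128 in DMSO. It rose 2.42-fold (log2 fold change 1.27 ± 0.22, edgeR adjusted p = 0.00536). Its level was 0.652 FPKM in DSF/Cu and 0.301 FPKM in DMSO, values that are not TMM-scaled. *NRG2* and *NRG3* had no count in any library, and *NRG4*, also named after its values were seen, had 0, 9 and 8 counts in DSF/Cu and 19, 8 and 12 in DMSO.

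The make-up of the ligand pool is given as shares of summed FPKM, with no test. *HBEGF* took 66.8 ± 1.49% of the sum over 8 ligand genes (the 6 above with *EGF* and *EPGN*, and without *NRG4*) in DSF/Cu and 75.0 ± 1.06% in DMSO (SD, n = 3 each). *AREG* took 13.2 ± 0.683% in DSF/Cu and 5.80 ± 0.372% in DMSO. The share of *TGFA* was 10.5 ± 0.763% in DSF/Cu and 7.67 ± 0.287% in DMSO, and that of *EREG* 5.66 ± 0.508% and 7.88 ± 0.357%. Shares within a library do not depend on how libraries are scaled to each other. In level per length, *HBEGF* came first in both groups, at 47.6 ± 0.436 FPKM in DSF/Cu and 76.4 ± 0.875 FPKM in DMSO. Behind it in DSF/Cu came *AREG*, *TGFA*, *EREG* and *NRG1*, none of which overlapped with its neighbour in that order. In DMSO *EREG* and *TGFA* came next and could not be ordered, with 7.48 to 8.56 FPKM and 7.32 to 8.11 FPKM, followed by *AREG* and *NRG1*.

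**Figure D2:**
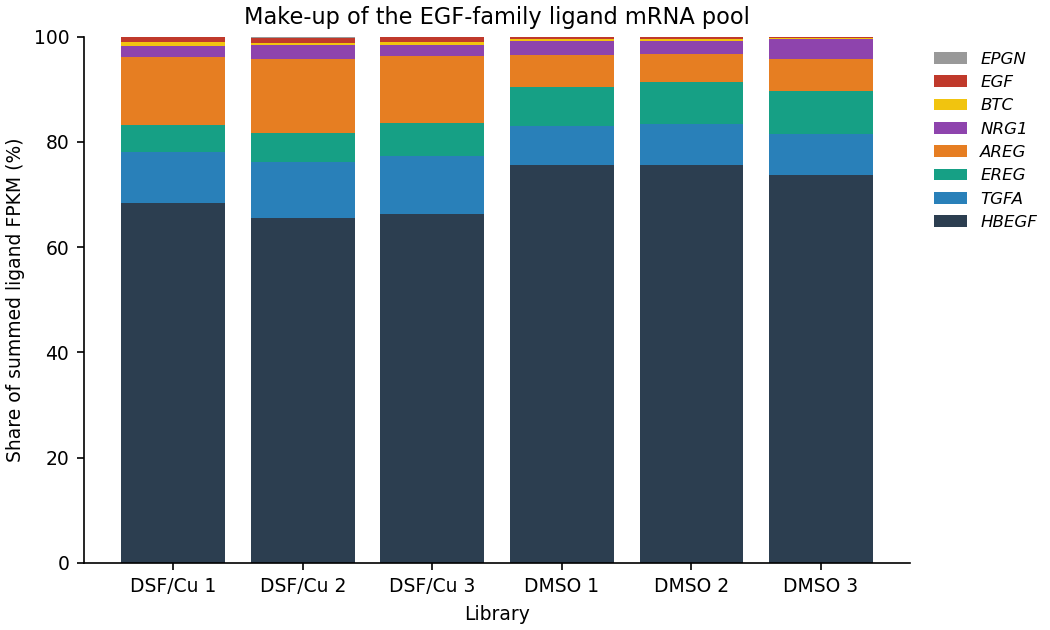
Share of summed FPKM (percent) taken by each of 8 EGF-family ligand genes in each library, DSF/Cu on the left and DMSO on the right. *HBEGF* holds 65.6 to 68.4% in DSF/Cu libraries and 73.8 to 75.6% in DMSO libraries, and *AREG* 12.8 to 14.0% and 5.37 to 6.04%.

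Of the receptor genes, *ERBB2* and *EGFR* were lower after DSF/Cu. *ERBB2* held 35.9, 41.5 and 41.7 CPM in DSF/Cu, against 74.7, 65.7 and 67.9 CPM in DMSO. All DSF/Cu libraries were below all DMSO libraries by a wide gap. The gene was 1.75-fold lower (log2 fold change -0.81 ± 0.09, edgeR adjusted p = 0.000937). *ERBB2* overlaps *PGAP3* and *MIEN1* on the opposite strand, and whether strand was used in counting is not given in the sources used here. *MIEN1* had 923 to 1008 counts in DSF/Cu and 1077 to 1311 in DMSO, and *PGAP3* had 135 to 232 and 382 to 470, against 2023 to 2396 and 4404 to 5695 for *ERBB2*.

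*EGFR*, the receptor of most of these ligands, held 240.3, 248 and 251 CPM in DSF/Cu, against 311, 277 and 284 CPM in DMSO. The groups did not overlap, but the gap between the highest DSF/Cu library and the lowest DMSO library was small. The gene was 1.18-fold lower (log2 fold change -0.24 ± 0.06, edgeR adjusted p = 0.0206). Without DSF/Cu replicate 1 or DSF/Cu replicate 2 the call was lost (edgeR adjusted p = 0.0618 and 0.0613). The size moved with scaling, to -0.423 under total-count scaling, where the median of all genes was -0.182, against 0.002 under TMM.

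*ERBB3*, the neuregulin receptor with a weak kinase, was scarce per length, at 0.138 ± 0.0277 FPKM in DSF/Cu and 0.239 ± 0.101 FPKM in DMSO (SD, n = 3 each). It had 101, 69 and 96 counts in DSF/Cu and 274, 123 and 127 in DMSO, where replicate 1 was the high library. Its log2 fold change was -0.62 with a 95% interval of -1.42 to 0.19 (edgeR adjusted p = 0.210), and without DMSO replicate 1 it was -0.235 (edgeR adjusted p = 0.591). *ERBB4* was below the count filter, with 4, 1 and 0 counts in DSF/Cu and 0, 8 and 0 in DMSO. *EGFR* thus made up most of the receptor transcripts, 83.1 ± 0.769% of the summed FPKM of the 4 receptor genes in DSF/Cu and 76.9 ± 0.321% in DMSO, and *ERBB2* 16.2 ± 0.879% and 22.2 ± 0.0908%. The ratio of *EGFR* to *ERBB2* was 5.54, 4.94 and 4.98 in DSF/Cu libraries and 3.43, 3.48 and 3.45 in DMSO libraries, and whether both genes changed by different amounts was not tested.

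*ERRFI1*, the inhibitor, was higher after DSF/Cu. It held 344.6, 339.6 and 363.5 CPM in DSF/Cu, against 228, 234.6 and 240.6 CPM in DMSO. Every DSF/Cu library was above every DMSO library. The gene rose 1.49-fold (log2 fold change 0.58 ± 0.05, edgeR adjusted p = 0.000405). Per length, *ERRFI1* exceeded *EGFR* by 4.30, 4.10 and 4.33 times in DSF/Cu libraries and by 2.19, 2.54 and 2.54 times in DMSO libraries. An antisense gene that overlaps it, *AL034417.4*, had 78 to 103 counts in DSF/Cu and 64 to 91 in DMSO, few beside the 15726 or more of *ERRFI1*.

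**Figure D3:**
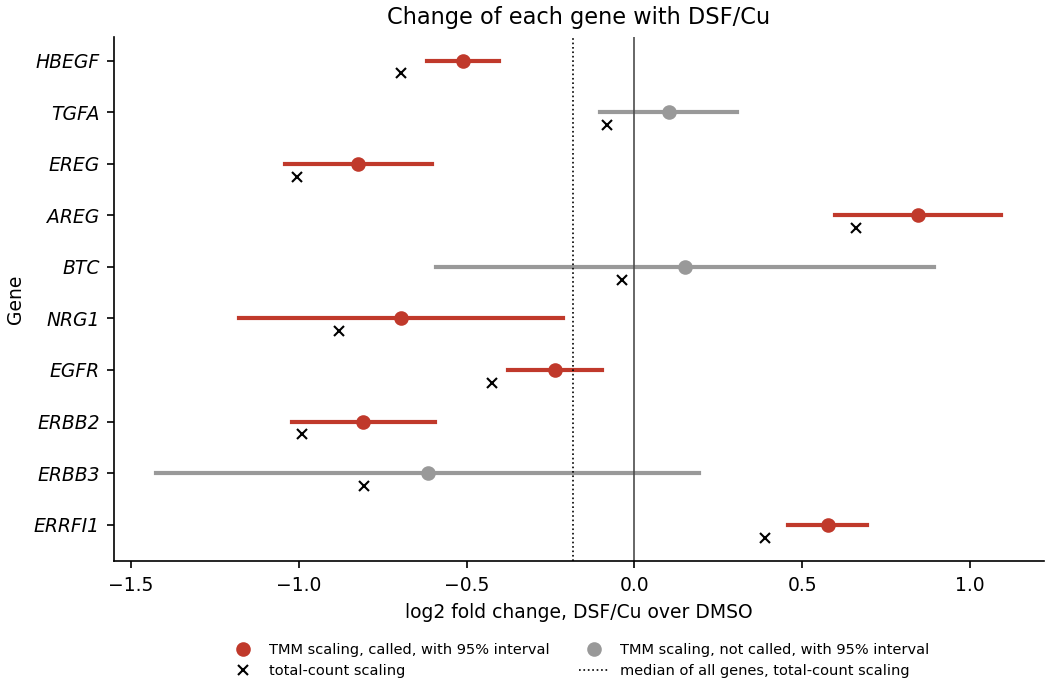
Log2 fold change (DSF/Cu over DMSO) of each gene, as points with 95% intervals under TMM scaling (red called, grey not called) and as crosses under total-count scaling; the dotted line is the median of all genes under total-count scaling, -0.182. The 7 called genes keep their side of 0 under both scalings, and *TGFA* and *BTC* change sign.

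The size of these changes was moderate among all tested genes. *AREG* and *EREG* ranked at the 78.8th and 77.9th percentile of absolute log2 fold change, and *EGFR* at the 30.4th. The groups did not overlap for 8 of the 10 genes, the 7 called and *ERBB3*, whose highest DSF/Cu library stood at 1.82 CPM beside 1.83 CPM in the lowest DMSO library. Over all tested genes the groups did not overlap for 51.2%. All 7 calls kept their direction and their call under total-count scaling and in DESeq2. *AREG*, *ERRFI1*, *HBEGF*, *EREG* and *ERBB2* kept theirs in all 15 alternatives run, including with each library left out in turn.

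Other genes of the pathway were described with lists that were written with earlier results of these data known. Among the 18229 genes tested, the median log2 fold change was 0.002, and 3365 genes were higher and 3059 lower after DSF/Cu (2356 and 4856 under total-count scaling, which lowered the share of rises among calls to 32.7%, against 52.4% under TMM). In the list for ligand release, 1 of 12 genes rose and 3 fell, with a median log2 fold change of 0.07. *RHBDF2*, an iRhom that escorts the sheddase ADAM17, held 20.0, 15.6 and 15.7 CPM in DSF/Cu and 29.8, 23.4 and 28.6 CPM in DMSO, so the groups were apart. Its log2 fold change was -0.68 ± 0.14 (edgeR adjusted p = 0.0123). *FRMD8*, which stabilises iRhom complexes, rose by 0.39 ± 0.11 (edgeR adjusted p = 0.0329). That call was lost under total-count scaling (0.205, adjusted p = 0.179) and without any single library other than DSF/Cu replicate 2 (adjusted p from 0.0517 to 0.0997). The metalloprotease genes *ADAM8* and *ADAM15* fell by 0.74 ± 0.09 and 0.42 ± 0.10 on the log2 scale (edgeR adjusted p = 0.00169 and 0.0160; 0.0504 for *ADAM15* without DSF/Cu replicate 3). *ADAM17* and *ADAM10*, the main sheddases of these ligands, were not called, with log2 fold changes of 0.38 ± 0.17 and -0.15 ± 0.06 (edgeR adjusted p = 0.124 and 0.0881), and were named after their values were seen.

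In the list of receptor turnover and receptor inhibitors, 11 of 22 tested genes rose and 4 fell, with a median log2 fold change of 0.20. Over all tested genes 18.5% rose and 16.8% fell. Without DSF/Cu replicate 2, DSF/Cu replicate 3 or DMSO replicate 1, 2 fell. *STAM* and *STAM2*, which sort ubiquitinated receptors on endosomes, rose by 0.98 ± 0.05 and 0.79 ± 0.07 on the log2 scale (edgeR adjusted p = 9.69e-05 and 0.000393). *STAM* held 157.5, 160.8 and 148 CPM in DSF/Cu and 78.3, 80.1 and 78.3 CPM in DMSO. *SH3KBP1*, a CBL-binding adaptor of receptor endocytosis, rose by 0.85 ± 0.05 (edgeR adjusted p = 0.000116), and *PTPRK*, a receptor-type phosphatase that acts on EGFR, by 0.86 ± 0.06 (edgeR adjusted p = 0.000238). The 4 genes that fell were *EPN1*, *LRIG3*, *SOCS3* and *PTPRJ*, named after their values were seen. Their log2 fold changes were -0.65, -0.76, -0.52 and -0.64 (edgeR adjusted p = 0.000635, 0.00748, 0.0292 and 0.0304). *CBL*, a ubiquitin ligase of activated EGFR, was named after its values were seen. It had 5827, 1067 and 1011 counts in DSF/Cu and 6806, 4695 and 5192 in DMSO, so that a single DSF/Cu library stood at the DMSO level or above, and it was not called (edgeR adjusted p = 0.436). Its relative *CBLB*, also named after its values were seen, held 23.1, 22.2 and 25.6 CPM in DSF/Cu and 11.4, 12.9 and 11.2 CPM in DMSO. *CBLB* was among the genes that rose, by 1.00 ± 0.10 on the log2 scale (edgeR adjusted p = 0.000773).

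Downstream of the receptors, 3 of 21 adaptor and RAS-ERK genes rose and 3 fell, with a median log2 fold change of 0.01. These counts, and those of the lists that follow, stand beside 18.5% higher and 16.8% lower over all tested genes. *HRAS*, a RAS GTPase, fell by 0.88 ± 0.08, and *RASA1*, which switches RAS off, by 0.80 ± 0.11 on the log2 scale (edgeR adjusted p = 0.000551 and 0.00208). *MAP2K1*, which encodes the kinase MEK1, rose by 0.36 ± 0.06 and *NF1*, another brake on RAS, by 0.48 ± 0.11 (edgeR adjusted p = 0.00389 and 0.0159), and under total-count scaling edgeR called 0 genes of this list higher (2 at an unadjusted p under 0.05; 5 were called with DESeq2). Without DMSO replicate 2, 1 gene of the list rose, and *NF1* was not called (adjusted p = 0.0591). Of 17 PI3K-AKT genes 5 rose and 6 fell, with a median of 0.15, and without DMSO replicate 2, 3 fell. *TSC1*, an inhibitor of mTOR complex 1 signalling, rose by 1.13 ± 0.07, and its downstream target *RHEB* by 0.61 ± 0.06 (edgeR adjusted p = 0.000161 and 0.000527). *AKT1* fell by 0.64 ± 0.06 and *RPTOR*, a subunit of mTOR complex 1, by 0.43 ± 0.06 (edgeR adjusted p = 0.000444 and 0.00291).

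Genes known as transcriptional targets of ERK did not move one way. Of 14 tested, 4 rose and 6 fell, with a median log2 fold change of -0.05. Without DMSO replicate 2, 2 rose, and without DSF/Cu replicate 3, DMSO replicate 1 or DMSO replicate 3, 3 fell. *EGR1*, an immediate early transcription factor, held 252, 220 and 232.7 CPM in DSF/Cu and 16.8, 14.4 and 23.9 CPM in DMSO, and rose by 3.68 ± 0.20 (log2, edgeR adjusted p = 9.13e-05). *IER3*, another early response gene, rose by 0.58 ± 0.06 (edgeR adjusted p = 0.000875). *CCND1*, cyclin D1, held 261, 292.7 and 275.8 CPM in DSF/Cu and 468, 490 and 465 CPM in DMSO, and fell by 0.78 ± 0.06 (edgeR adjusted p = 0.000218). *ETV4*, an ETS transcription factor, fell by 0.67 ± 0.09 (edgeR adjusted p = 0.00199). *DUSP6* and *SPRY4*, feedback inhibitors of this cascade that were named after their values were seen, overlapped between the groups and were not called (edgeR adjusted p = 0.896 and 0.840). Their relatives in the list, also named after their values were seen, differed. *DUSP4* was not called (edgeR adjusted p = 0.364), while *SPRY2* rose by 0.28 ± 0.08 and *SPRY1* fell by 1.02 ± 0.28 (log2, edgeR adjusted p = 0.0382 and 0.0300).

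**Figure D4:**
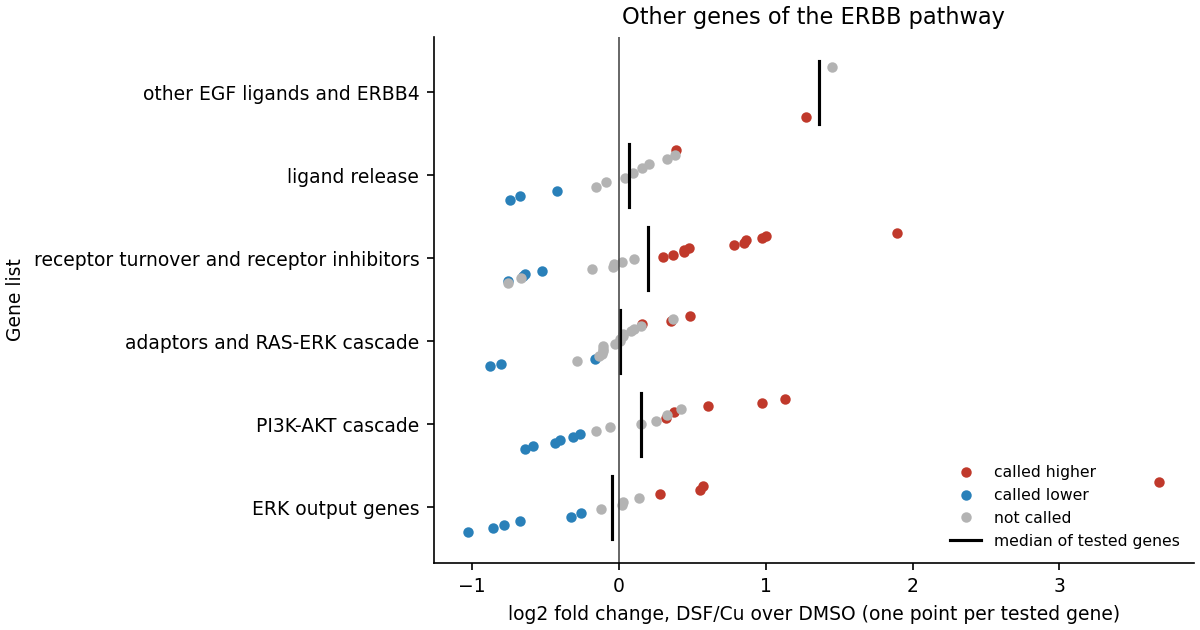
Log2 fold change (DSF/Cu over DMSO) of each tested gene in 6 lists, 1 point per gene, red called higher, blue called lower and grey not called; black lines are list medians. Most lists hold calls on both sides of 0, and the receptor turnover list holds 11 higher and 4 lower of 22 genes. Over all tested genes 18.5% were higher and 16.8% lower.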

How the data were processed

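RNA was measured in 3 DSF/Cu and 3 DMSO libraries. The authors deposited whole-number counts per gene, and FPKM values per kilobase and scaled fragment number, per the file headers. Columns headed Control were taken as DMSO, the only untreated group. HISAT2 2.0, StringTie 1.3.0, Bowtie 0.12.2 and a mouse build are listed in the submitters' processing notes, but the genes are human. Of the 10 genes, 9 have both ends within 1 kb of GENCODE's on GRCh38. The exception is *NRG1*, whose deposited end is at 32855666, against 32767959 in GENCODE. Whether that difference affected its counts was not tested. The sources used here do not give the counter, strand setting or annotation. Counts were filtered by filterByExpr, TMM-scaled and tested two-sided with edgeR 4.0.16 in R 4.3.3; a standard error is the size of the log2 fold change divided by the root of the F statistic. Alternatives used limma 3.58.1 on FPKM, DESeq2 1.42.0, other scalings and filters, a replicate block and each library left out. FPKM served to compare genes. It comes from the same quantification as the counts (count to FPKM ratios of 9021 well-counted genes had a median SD of 0.00053 log2), so it is no independent check. FPKM was not TMM-scaled, so its group means differ from the fold changes in CPM. For *HBEGF* the log2 fold change was -0.681 with limma on log2(FPKM + 0.1), against -0.510 under TMM. On simulated counts for 18229 genes, 19 of 77 genes changed 1.5-fold, 23 of 59 changed 2-fold and 45 of 64 changed 4-fold were called, with 6 of 18029 unchanged genes. Only 200 genes, drawn at random over all levels, were changed there, while 35.2% of tested genes were called in the data. The adjusted threshold was thus stricter in the simulation, and its rates do not give the share of such changes found here. Named genes are the 10 members, up to 4 called genes of each list by adjusted p, *EGF* and *ERBB4*, with exceptions named as such. Members and lists were chosen with earlier results of these data known. Sequences are RefSeq's, GRCh38.p14. Counting precision rests on the depths given above.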

Additional observations from a re-analysis of the deposited data

How the results depend on the processing

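With the replicate block in edgeR, 3 of the 10 genes were called lower in place of 5, since *NRG1* (-0.671, adjusted p = 0.0817) and *EGFR* (-0.236, 0.0582) lost their calls. Same-numbered libraries correlated in their deviations from the group means by 0.0222, -0.00238 and 0.0469, so the numbers are not taken to pair the samples. Of the libraries, 1 of 3 DSF/Cu and 2 of 3 DMSO correlated best with their own number. With limma on log2(FPKM + 1) and no filter *NRG1* was not called (-0.584, adjusted p = 0.0555). The sign turned for *TGFA* under total-count scaling (-0.0818) and with limma on FPKM (-0.0621 with a pseudocount of 1, filtered or not, and -0.0697 with 0.1), and for *BTC* (-0.0361 under total counts and -0.00206 with a pseudocount of 1, filtered or not). Over all genes, 4856 were lower under total-count scaling, and 4635 and 4614 with limma and pseudocounts of 1 and 0.1; with no filter 2231 were higher.

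List counts that moved by over 1.5 times were these. For ligand release, 0 were higher in edgeR under total counts (0 at an unadjusted p under 0.05) and with no count filter (1) and in all 3 forms of limma (0), and 2 with DESeq2. For receptor turnover, 7 were higher with limma and no filter. For RAS-ERK, 0 were higher in edgeR under total counts (2 at an unadjusted p under 0.05), 5 with DESeq2 and 1 with limma in all 3 forms, and 6 were lower under total counts and with limma in all 3 forms. For PI3K-AKT, 3 were higher under total counts and with limma in all 3 forms, and for ERK targets 2 with limma in all 3 forms.

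With each library left out in turn, the 10 genes gave 3 to 5 lower calls (3 without DSF/Cu replicate 1). *NRG1* ranged from -0.821 to -0.455, *EGFR* from -0.275 to -0.190, *ERBB3* from -0.791 to -0.235 (without DMSO replicate 1) and *BTC* from -0.0817 (without DMSO replicate 3) to 0.340. Ligand release gave 0 to 1 higher in edgeR (1 or 2 at an unadjusted p under 0.05 where 0), receptor turnover 2 to 4 lower, RAS-ERK 1 to 3 higher, PI3K-AKT 3 to 6 lower, and ERK targets 2 to 4 higher and 3 to 5 lower. The causes of these moves were not tested. Of 705 alternative values, 629 kept their direction and call or stayed within 1.5 times the count. That total includes a list count that was 0 in every setting and genes called in no setting, such as *ERBB3*. It is thus no measure of how stable the calls are. *BTC* and *EPGN* rest on fewer than 100 counts in every library.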
